A study of Mus musculus with 8 samples.

Results

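Red blood cell genes, 8 in number, were followed in bulk mRNA sequencing of mouse quadriceps: the adult alpha-globin genes Hba-a1 and Hba-a2, the adult beta-globin genes Hbb-bs and Hbb-bt, the haem enzyme gene Alas2, the membrane genes Slc4a1 and Epb42, and the globin chaperone gene Ahsp. They are 8 of the 35494 gene symbols in the count table, were found there by symbol, and were chosen by the higher levels in scMC38 that an earlier analysis of the same libraries had given. Their difference between the groups is therefore given as a description and not as evidence. All mice were wild-type male C57BL/6, 8 weeks old at the start, with muscle taken at day 28. The 4 mice of the scMC38 group were injected under the skin with 1000000 cells of MC38, a line from a mouse colon carcinoma, and the 4 control mice with an equal volume of PBS under the skin. Each mouse gave 1 library, and the only comparison is scMC38 with control.

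Haemoglobin carries oxygen and is built from a pair of alpha and a pair of beta globin chains, each holding a haem. Erythroblasts in the bone marrow transcribe the globin genes, load the chains with haem made through the erythroid enzyme ALAS2, and build a membrane around band 3 and its partners. The cell then expels its nucleus and enters blood as a reticulocyte, which still carries globin mRNA for a short time. Muscle fibres make myoglobin, a related oxygen-binding protein, and blood runs through the capillaries between them.

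The adult globin genes come in copies with near-identical coding sequences, which limits what can be said of each copy alone. In the GENCODE M21 transcripts the coding sequences of Hba-a1 and Hba-a2, 429 bases each, differ at 1 base, and those of Hbb-bs and Hbb-bt, 444 bases each, also differ at 1. Of the 31-base pieces of the coding sequence, 92.2% are shared within the alpha pair and 93.2% within the beta pair, while alpha and beta share none. Over whole transcripts the copies are less alike. There 71.3% of the pieces of Hba-a1 and 91.0% of those of Hba-a2 are shared within the pair. For Hbb-bs and Hbb-bt these shares are 66.9% and 59.4%. The sums of each pair are therefore better determined than the single copies.

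The start regions of 4 of these genes are shown because their levels lay in a similar order across the libraries, and because they hold short motifs known from erythroid promoters. RefSeq windows (build GRCm38.p6, not the build of the counts) were matched by symbol for 6 of the 8 genes, all but Slc4a1 and Ahsp. The motifs searched, on both strands of the 250 bases before the start, were GATAA (the core bound by GATA factors), CACCC (bound by KLF factors), CCAAT (bound by NF-Y) and TATAA (the TATA box). Each line gives the 215 bases before the annotated start, 5′ to 3′, with matches to any of these 4 motifs in either direction in capitals. The windows are Hba-a1 at chr11:32283457-32283671 on the plus strand, Hbb-bs at chr7:103827929-103828143 and Hbb-bt at chr7:103813924-103814138 on the minus strand, and Alas2 at chrX:150547202-150547416 on the plus strand.
Hba-a1: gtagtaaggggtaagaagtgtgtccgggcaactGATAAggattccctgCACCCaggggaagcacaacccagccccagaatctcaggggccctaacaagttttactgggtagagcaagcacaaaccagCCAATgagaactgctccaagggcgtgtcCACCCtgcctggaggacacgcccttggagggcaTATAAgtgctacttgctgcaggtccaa
Hbb-bs: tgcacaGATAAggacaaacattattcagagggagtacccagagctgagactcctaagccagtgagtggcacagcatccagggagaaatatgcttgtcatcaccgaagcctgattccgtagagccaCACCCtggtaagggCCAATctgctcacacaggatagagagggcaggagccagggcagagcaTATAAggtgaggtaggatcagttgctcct
Hbb-bt: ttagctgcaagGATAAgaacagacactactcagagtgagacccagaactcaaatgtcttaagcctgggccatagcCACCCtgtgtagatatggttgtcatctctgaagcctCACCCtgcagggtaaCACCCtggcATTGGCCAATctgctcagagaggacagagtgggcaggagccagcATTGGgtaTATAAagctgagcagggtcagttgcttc
Alas2: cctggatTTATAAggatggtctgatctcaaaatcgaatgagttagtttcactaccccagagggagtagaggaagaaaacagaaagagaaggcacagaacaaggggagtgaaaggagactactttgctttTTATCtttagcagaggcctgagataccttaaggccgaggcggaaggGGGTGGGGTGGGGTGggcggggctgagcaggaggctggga

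All 4 motifs were present in the windows of Hba-a1, Hba-a2, Hbb-bs and Hbb-bt, a combination found in 0.968% of the 32851 RefSeq windows of this length. Singly they are common: GATAA occurs in 22.6% of windows, CACCC in 52.0%, CCAAT in 33.8% and TATAA in 22.8%. The Hba-a2 window repeats that of Hba-a1 with its start annotated 3 bases further on, and all 247 bases that the windows share are identical. Hbb-bs and Hbb-bt are less alike here, at 69.3% identity when aligned. In the globin windows a plus-strand TATAA match begins 27 to 30 bases before the start and a plus-strand CCAAT match 75 to 91 bases before it. Alas2 holds 3 CACCC matches side by side within 40 bases of the start and a GATAA match beginning 86 bases before it, all on the minus strand, and no CCAAT match. Its forward and reverse TATAA matches, near 208 bases before the start, overlap each other. Epb42 holds a GATAA and a TATAA match. A match describes letters and does not show a bound site.

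**Figure D1:**
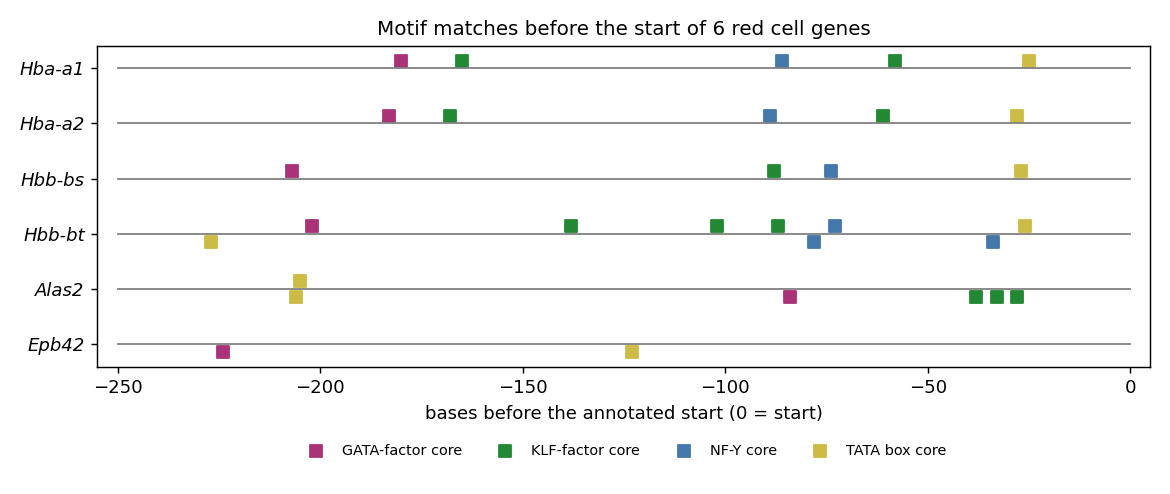
Positions of motif matches in the 250 bases before the annotated start of 6 red cell genes (x axis, bases before the start). Squares above a line are plus-strand matches and squares below it minus-strand matches. The 4 globin genes share a TATA box core between 30 and 23 bases before the start.

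Total counts per library ran from 50465092 to 62105453, and levels below are TMM-scaled CPM, the counts of a gene per 1000000 counts of its library. Libraries scMC38 1 and scMC38 3 stood apart in markers of bone and marrow, with Ibsp, a bone matrix gene, at 40.6 and 137 CPM. It had at most 3 counts (0.0600 CPM) in controls and 0 in scMC38 2, but 71 counts (1.40 CPM) in scMC38 4, which therefore carried a trace of it. Mitochondrially encoded genes took 24.3% and 29.7% of counts in control 1 and 2 and 14.4% to 18.9% in the rest. Results are given with and without scMC38 1 and 3.

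The adult globins lay higher in all 4 scMC38 libraries than in any control. Hba-a1 stood at 111, 197, 114 and 94.2 CPM in control 1 to 4 and at 551, 297, 588 and 291 CPM in scMC38 1 to 4. Hba-a2, the copy with more assigned counts, stood at 201, 371, 214 and 175 CPM in controls and at 1035, 557, 932 and 533 CPM in scMC38. Both copies were highest in scMC38 1 and 3, control 2 was the highest control, and the groups did not overlap. Summed over the pair, alpha globin was 369 ± 135 CPM in controls and 1196 ± 414 CPM in scMC38 (SD, n = 4), a ratio of means of 3.24. In scMC38 2, where Ibsp was at 0, the alpha sum was 854 CPM, and in scMC38 4 it was 823 CPM, both above the highest control at 568 CPM.

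Beta globin followed. Hbb-bs, the adult beta gene with the most counts, stood at 233, 443, 228 and 195 CPM in control 1 to 4 and at 810, 687, 1072 and 676 CPM in scMC38 1 to 4. The groups did not overlap, and again control 2 was the highest control. Hbb-bt, the beta copy with fewer counts, stood at 32.4, 62.7, 33.7 and 30.1 CPM in controls and at 167, 105, 208 and 118 CPM in scMC38. The beta sum was 314 ± 129 CPM in controls and 961 ± 230 CPM in scMC38 (SD, n = 4), a ratio of means of 3.06. All 4 genes together made up 0.0495% to 0.0973% of counts in controls and 0.155% to 0.319% in scMC38. Bulk RNA cannot tell more red cells in the sample from more globin mRNA per red cell or from nucleated red cell precursors. Markers of such precursors are given below.

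Alas2 encodes the first and rate-setting enzyme of haem synthesis in red cell precursors. Its level was 6.98, 12.2, 6.62 and 5.95 CPM in control 1 to 4 and 23.5, 19.5, 31.7 and 20.9 CPM in scMC38 1 to 4. As for both beta globins, control 2 was the highest control, scMC38 3 was the highest library of all, and the groups did not overlap. The group means were 7.94 ± 2.88 and 23.9 ± 5.45 CPM (SD, n = 4), a ratio of 3.01.

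**Figure D2:**
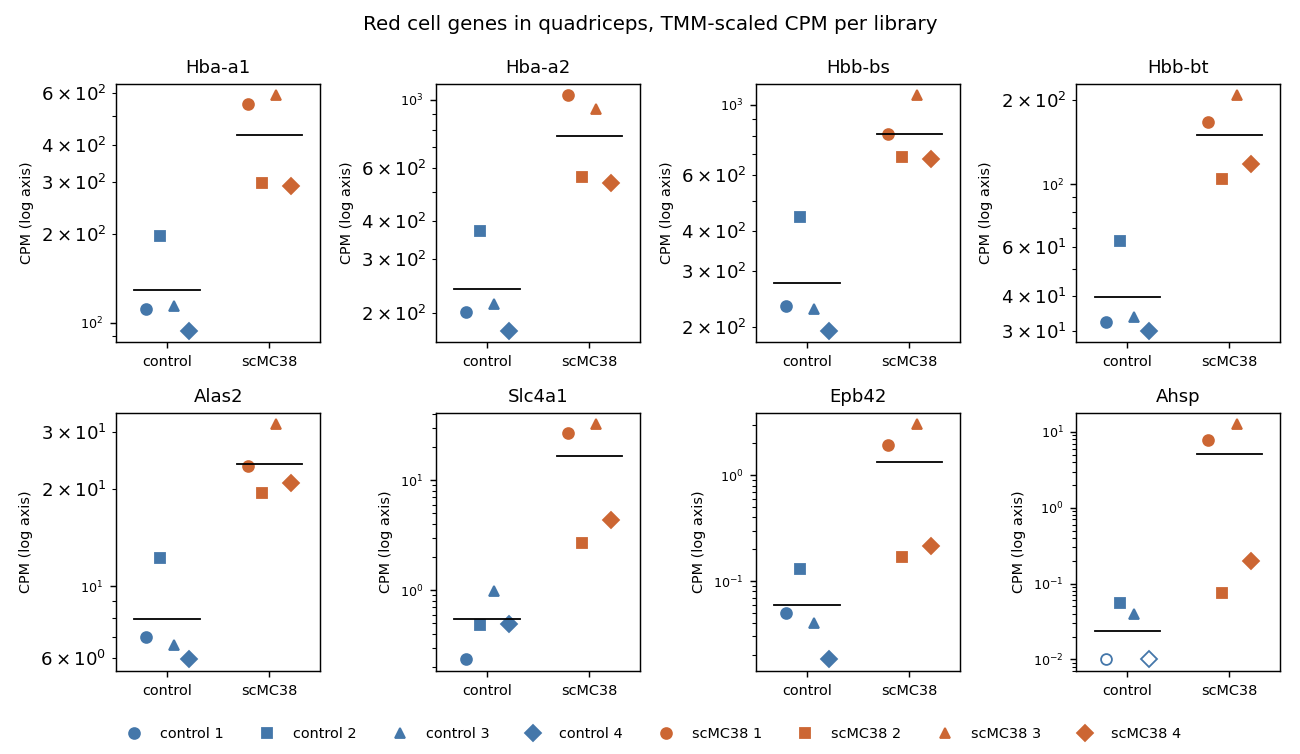
TMM-scaled CPM of each of the 8 genes (y axis, log scale) in the 4 control and 4 scMC38 libraries, 1 point per library, with a line at the group mean. Open symbols for Ahsp mark libraries at 0, drawn at 0.01. In every panel the 4 scMC38 points lie above the 4 control points, and for Slc4a1, Epb42 and Ahsp scMC38 1 and 3 lie far above scMC38 2 and 4.

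The membrane genes were much scarcer and differed far more between libraries. Slc4a1 encodes band 3, the anion exchanger that anchors the red cell skeleton. It stood at 0.234, 0.480, 0.980 and 0.492 CPM in control 1 to 4 and at 27.1, 2.71, 32.3 and 4.31 CPM in scMC38 1 to 4. Libraries scMC38 1 and 3 were the highest, and scMC38 2 and 4 still lay above every control, with 143 and 219 counts against 14 to 49. Their mean was 6.42 times the control mean, and that of scMC38 1 and 3 was 54.4 times it. Epb42 encodes protein 4.2, which binds band 3. It had 3, 7, 2 and 1 counts in controls and 115, 9, 213 and 11 in scMC38, so that scMC38 2 and 4 exceeded the highest control by only 2 and 4 counts.

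Ahsp encodes the chaperone that holds free alpha globin until it meets a beta chain. It had 0, 3, 2 and 0 counts in control 1 to 4 and 460, 4, 885 and 10 counts in scMC38 1 to 4. In scMC38 2 the count was 1 above the highest control, which is not a difference this depth can show. Over scMC38 2 and 4 there were 14 counts against 5 in the 4 controls, a ratio per total count of 6.00 with an exact 95% interval of 2.04 to 21.3. Over scMC38 1 and 3 the ratio was 520, with an interval of 222 to 1600. For Epb42 the same ratios were 3.30 (1.56 to 7.21) in scMC38 2 and 4 and 48.7 (28.1 to 92.5) in scMC38 1 and 3. These intervals pool the libraries named and cover counting error only, not the spread between mice. As the genes were chosen on this contrast, an interval that leaves out 1 is not evidence of a difference.

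Set against annotated transcript length, the control levels ran over more than 4 orders of magnitude. Hbb-bs (437 ± 181 CPM per kilobase) and Hba-a2 (434 ± 160) had similar means (SD, n = 4). Within libraries, Hbb-bs was the higher in control 1 (371 against 363) and control 2 (705 against 670). Hba-a2 was the higher in control 3 (385 against 362) and control 4 (317 against 310). Hba-a1 followed at 185 ± 66.1 and Hbb-bt at 56.5 ± 21.9 CPM per kilobase. Alas2 was at 3.90 ± 1.41, Slc4a1 at 0.1202 ± 0.0687 and Epb42 at 0.0144 ± 0.0118 CPM per kilobase. Hba-a1 is annotated with 699 bases and Hba-a2 with 554, so the order of the alpha copies also rests on how counts were divided between them.

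Ratios to globin were taken within each library. Alas2 varied little on this scale, with 12.1, 11.4, 11.3 and 12.0 counts per 1000 adult globin counts in control 1 to 4 and 9.18, 11.9, 11.3 and 12.9 in scMC38 1 to 4. The groups overlapped, at 11.7 ± 0.437 and 11.3 ± 1.57 (SD, n = 4), and scMC38 1 was the lowest. Slc4a1 had 0.406, 0.447, 1.67 and 0.994 counts per 1000 globin counts in controls and 10.6, 1.65, 11.5 and 2.67 in scMC38. Here scMC38 2 lay just inside the control range, scMC38 4 above it, and scMC38 1 and 3 far above both. Ahsp had at most 0.0680 per 1000 in controls, 0.0460 and 0.122 in scMC38 2 and 4, but 3.03 and 4.50 in scMC38 1 and 3. Epb42 had 0.0368 to 0.1203 in controls, 0.104 and 0.134 in scMC38 2 and 4, but 0.757 and 1.08 in scMC38 1 and 3.

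**Figure D3:**
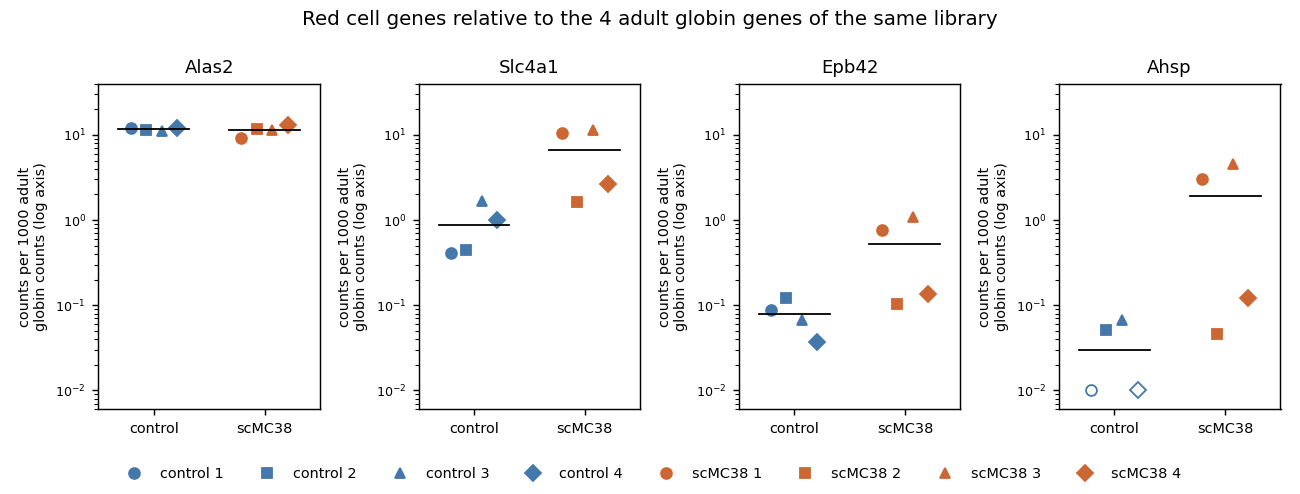
Counts of Alas2, Slc4a1, Epb42 and Ahsp per 1000 counts of the 4 adult globin genes in the same library (y axis, log scale), 1 point per library, with a line at the group mean. Open symbols are libraries with 0 counts, drawn at 0.01. Alas2 lies between 9.18 and 12.9 in all 8 libraries, while the other genes are highest in scMC38 1 and 3.

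The balance of alpha to beta globin counts was 1.18, 1.12, 1.25 and 1.20 in control 1 to 4 and 1.62, 1.08, 1.19 and 1.04 in scMC38 1 to 4. Library scMC38 1 had the highest ratio, and scMC38 2 and 4 lay below every control. Within the alpha pair, Hba-a2 had 1.81 to 1.88 times the counts of Hba-a1 in all libraries but scMC38 3, where the ratio was 1.59. Within the beta pair, Hbb-bs had 6.46 to 7.19 times the counts of Hbb-bt in controls and 4.84, 6.58, 5.17 and 5.73 times in scMC38 1 to 4. The scMC38 range reached into the control range only through scMC38 2. The division of reads between these copies is a model estimate.

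In the edgeR fit over all 14112 genes that passed the filter on low counts, 6 of the 8 genes were tested. Epb42 and Ahsp fell short, as they reached the filter's 0.181 CPM in 3 libraries where 4 were needed. The log2 fold changes, scMC38 minus control, were 1.74 (SE 0.32) for Hba-a1, 1.67 (SE 0.31) for Hba-a2, 1.56 (SE 0.28) for Hbb-bs, 1.91 (SE 0.30) for Hbb-bt, 1.59 (SE 0.25) for Alas2 and 4.94 (SE 0.92) for Slc4a1. All 6 were among the 0.737% of genes called higher at an adjusted p under 0.05, where 0.468% were called lower. Scaling to total counts in place of TMM moved the share of calls that were higher from 61.2% to 80.9%. All 6 also had their 4 scMC38 libraries above the 4 controls, as did 6.82% of the genes tested. As the genes were chosen on this contrast, nothing is read from these counts. Without scMC38 1 and 3 the log2 fold changes were 1.21, 1.20, 1.34, 1.51, 1.37 and 2.71 in the same order, and none of the 6 was called, with 0.174% of genes called higher in that fit. Leaving out 1 library at a time, no member was called without control 1, 3 or 4 or without scMC38 1, 3 or 4, while 3 were called without control 2 and 1 without scMC38 2. Over the whole table the calls fell as well, from 104 higher to between 1 and 59. The log2 fold changes in these fits stayed between 1.55 and 2.02 for Hba-a1, 1.49 and 1.96 for Hba-a2, 1.40 and 1.89 for Hbb-bs, 1.71 and 2.22 for Hbb-bt, 1.42 and 1.87 for Alas2, and 4.39 and 5.37 for Slc4a1.

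Markers of other cells were summed in the same libraries. The 7 markers of nucleated erythroid cells, among them the transcription factor genes Klf1 and Gata1, summed to 0.440 to 0.591 CPM in controls, to 0.473 and 0.532 CPM in scMC38 2 and 4, inside the control range, and to 15.9 and 25.2 CPM in scMC38 1 and 3. In controls and in scMC38 2 and 4 most of this sum lay in Car1 and Epor. In scMC38 4 Gata1 and Rhag had 0 counts, while Klf1 had 5, Cldn13 3 and Hemgn 2. Hemgn stood at 0.0378 and 0.0394 CPM in scMC38 2 and 4, and Cldn13 at 0.0591 CPM in scMC38 4. These values lay above every control (at most 0.02 CPM for either gene). Counts this low cannot show a difference, and the sums do not show that such cells were absent. Bone cell markers summed to 91.5 and 783 CPM in scMC38 1 and 3, and to 16.5 and 13.3 CPM in scMC38 2 and 4. The last 2 sums were below every control (21.9 to 39.9 CPM). In controls and in scMC38 2 and 4 the sums lay mostly in Alpl, Acp5 and Ctsk. Alpl stood at 9.56 to 33.1 CPM in controls and at 5.22 and 6.64 CPM in scMC38 2 and 4. Ibsp went the other way in scMC38 4, with 71 counts against at most 3 in controls. Marrow granulocyte progenitor markers were at 250.3 and 2011 CPM in scMC38 1 and 3. In scMC38 2 and 4 they summed to 0.511 and 3.43 CPM, against 0.0335 to 2.52 CPM in controls. Only the scMC38 4 sum of this pair lay above every control, and most of it was Ngp (1.83 CPM) and Ltf (0.926 CPM). Elane (4 counts), Camp (16) and Ctsg (0) did not exceed their highest control there. Mpo, Prtn3 and Ms4a3 did in CPM, with only 7, 5 and 2 counts. The higher sum was therefore not shared by all markers of the list. Dividing cell markers were at 37.6 and 113 CPM in scMC38 1 and 3 but 2.95 and 1.93 CPM in scMC38 2 and 4, within the control range of 1.44 to 3.88 CPM. The part of these cell types in the levels of the red cell genes was not tested.

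In scMC38 2 and 4, where globin was 2.39 times the control mean, markers of other blood cells differed among themselves. Platelet and megakaryocyte markers summed to 7.17 and 3.70 CPM there and to 4.72 to 7.01 CPM in controls. The 5 B cell markers summed to 0.530 and 0.453 CPM there, below every control (0.565 to 1.53 CPM), and to 1.54 and 9.64 CPM in scMC38 1 and 3. No B cell marker had more than 18 counts in scMC38 2 or 8 in scMC38 4. Their small gap to the lowest control is not a difference this depth can show. Cd79b in scMC38 2, at 0.341 CPM, lay above control 1, 3 and 4. Mature neutrophil markers were at 18.1 and 35.2 CPM there, above the 5.09 to 8.72 CPM of controls, and at 249 and 2546 CPM in scMC38 1 and 3. Not every marker of that list exceeded its highest control. Mmp8 was at 0.284 CPM in scMC38 2 against 0.340 CPM in control 3, and Mmp9 at 4.18 CPM in scMC38 4 against 5.88 CPM in control 4. Endothelial markers overlapped between the groups, at 364 to 566 CPM in controls and 321 to 544 CPM in scMC38. Control 2, the control with the most globin, was also the control with the most endothelial marker mRNA and the highest mitochondrial share. The muscle fibre markers, among them Acta1 and Ckm, overlapped as well.

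**Figure D4:**
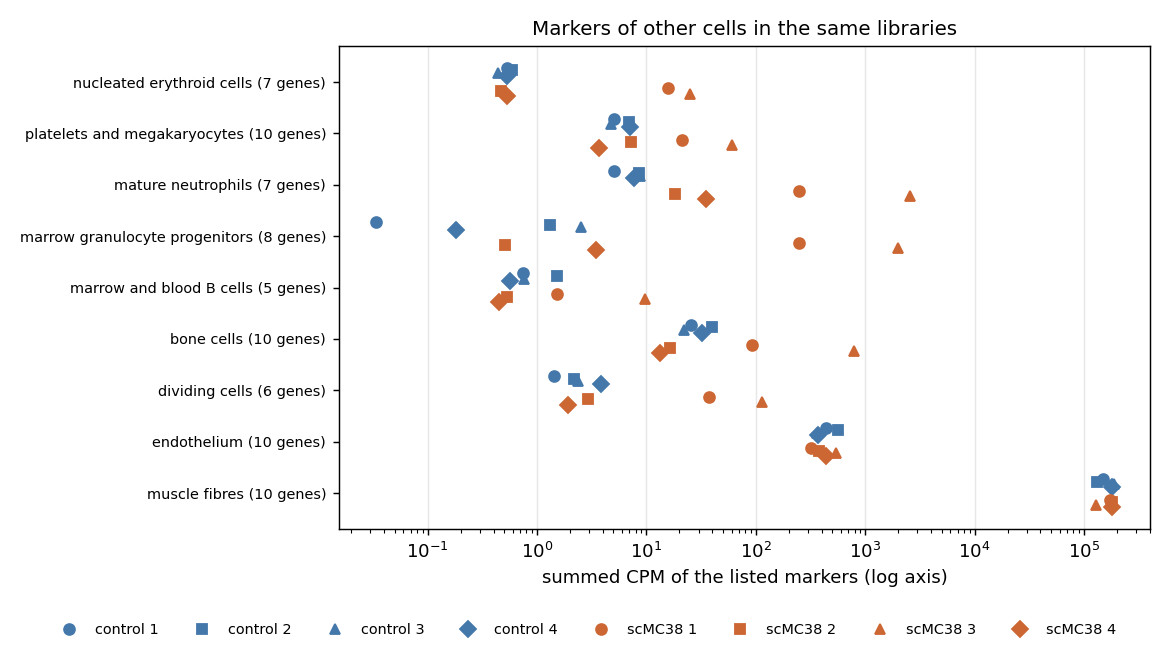
Summed CPM of marker genes for 9 cell types (x axis, log scale) in each library, controls above and scMC38 below within each row. Bone, marrow progenitor and dividing cell markers are high in scMC38 1 and 3, whereas endothelial and muscle fibre markers overlap between the groups.

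Beyond the 8 genes, 79 related genes of red cells and haem were followed, of which 51 were tested. By edgeR 1 was called higher, where 0.737% of all genes tested were, and 0 lower. DESeq2 called 5 higher, where it called 5.89% of all genes higher, and 0 lower. An unadjusted edgeR p under 0.05, counted for each list below, was found for 21.0% of all genes. The lists were drawn up with results of these libraries known, so their counts are descriptions. The median log2 fold change of the 51 was 0.07, with 33 positive, against 0.00 for all 14112 genes tested, of which 7078 were positive. The single edgeR call was Tent5c.

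Among 14 red cell membrane and skeleton genes, 8 were tested and 0 called by edgeR or DESeq2, with 2 at an unadjusted p under 0.05. Those with the smallest p were Sptb (0.43, adjusted p = 0.167) and Ank1 (-0.47, adjusted p = 0.175). Sptb encodes a beta spectrin, and Ank1 an ankyrin that in red cells ties band 3 to spectrin. Both were abundant in controls, at 264 ± 43.4 CPM for Sptb and 590.4 ± 105 CPM for Ank1 (SD, n = 4), far above Slc4a1 at 0.546 CPM. Their values therefore cannot be read as levels in red cells, and the cells they came from were not tested. The median of the 8 log2 fold changes was 0.08, and 0.15 without scMC38 1 and 3. It does not cover Add2, Rhag, Rhd, Kel, Ermap and Cldn13, which failed the filter on low counts. Rhd, Rhag and Kel, blood group genes too scarce to test, had at most 2 counts in any control and in scMC38 2 and 4, against 126 to 274 in scMC38 1 and 3.

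Of 19 red cell enzyme and reticulocyte genes, 13 were tested, and edgeR called 1, which was higher. At an unadjusted p under 0.05 there were 8 of the 13, and DESeq2 called 5 higher, Tent5c among them. Tent5c, which encodes a poly(A) polymerase and is abundant in late erythroid cells, averaged 3.84 ± 0.693 CPM in controls and 10.7 ± 1.89 CPM in scMC38 (SD, n = 4), a rise of 1.48 on the log2 scale (SE 0.17, adjusted p = 0.0162). It was also called without scMC38 1 and 3 (1.29, adjusted p = 0.0486), and lost its call without control 1 or control 3 (adjusted p up to 0.0865). Per 1000 globin counts Tent5c lay at 4.23 to 7.14 in controls and at 4.33 to 6.04 in scMC38, so the groups overlapped on that scale.

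Of the 11 other haem synthesis genes, all were tested and 0 were called by edgeR or DESeq2, with 1 at an unadjusted p under 0.05, and the median log2 fold change was 0.03. Cpox (0.16, adjusted p = 0.186), an enzyme of the later steps, and Slc25a37 (0.44, adjusted p = 0.272), the mitochondrial iron importer mitoferrin, had the smallest p. Alas1, the ubiquitous form of the first enzyme, stood at 101 ± 22.0 CPM in controls and 84.1 ± 8.23 CPM in scMC38 (SD, n = 4; log2 fold change -0.27, adjusted p = 0.325). Slc25a37 had a difference of 0.05 without scMC38 1 and 3. How much of the mRNA of these genes came from red cells was not tested.

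Of 14 erythroid transcription factor and receptor genes, 7 were tested and 7 were too scarce, with 0 called by edgeR or DESeq2 and 2 at an unadjusted p under 0.05. Tfrc, the transferrin receptor that brings iron into cells, had a log2 fold change of -0.43 (adjusted p = 0.186), and Tal1, an erythroid and endothelial factor gene, one of 1.08 (adjusted p = 0.223). The list's median was 0.46 with all libraries and -0.18 without scMC38 1 and 3. Klf1 had 8, 3, 4 and 0 counts in control 1 to 4, 143 and 238 in scMC38 1 and 3, but 1 and 5 in scMC38 2 and 4. Gata1 reached 122 and 247 counts in scMC38 1 and 3, and had at most 3 counts in each of the other 6 libraries. Hemgn, a nuclear gene of erythroid precursors, had 228 and 390 counts in scMC38 1 and 3 and 2 in each of scMC38 2 and 4, with 1 count in all 4 controls together.

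Of 10 other globin genes, 2 were tested and 0 called by edgeR or DESeq2, with 0 at an unadjusted p under 0.05. The embryonic genes Hbb-bh1 and Hba-x had 0 counts in all 8 libraries, where 3 counts would correspond to between 0.0427 and 0.0600 CPM, and Hbb-y had 2 counts in scMC38 1 alone. Myoglobin, Mb, the oxygen store of oxidative fibres, ranged from 193 to 4409 CPM in controls and from 650 to 1401 CPM in scMC38 (log2 fold change -0.94, adjusted p = 0.498). Cygb, cytoglobin, made by fibroblasts, was not called either (0.34, adjusted p = 0.269). Of 12 genes for haem and haemoglobin breakdown and scavenging, 11 were tested and 0 called by edgeR or DESeq2, with 2 at an unadjusted p under 0.05 and a median of -0.01. Hmox1, which encodes the inducible haem oxygenase, had the smallest p (0.59, adjusted p = 0.154) and Slc48a1, a haem transporter, the next (-0.16, adjusted p = 0.215).

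**Figure D5:**
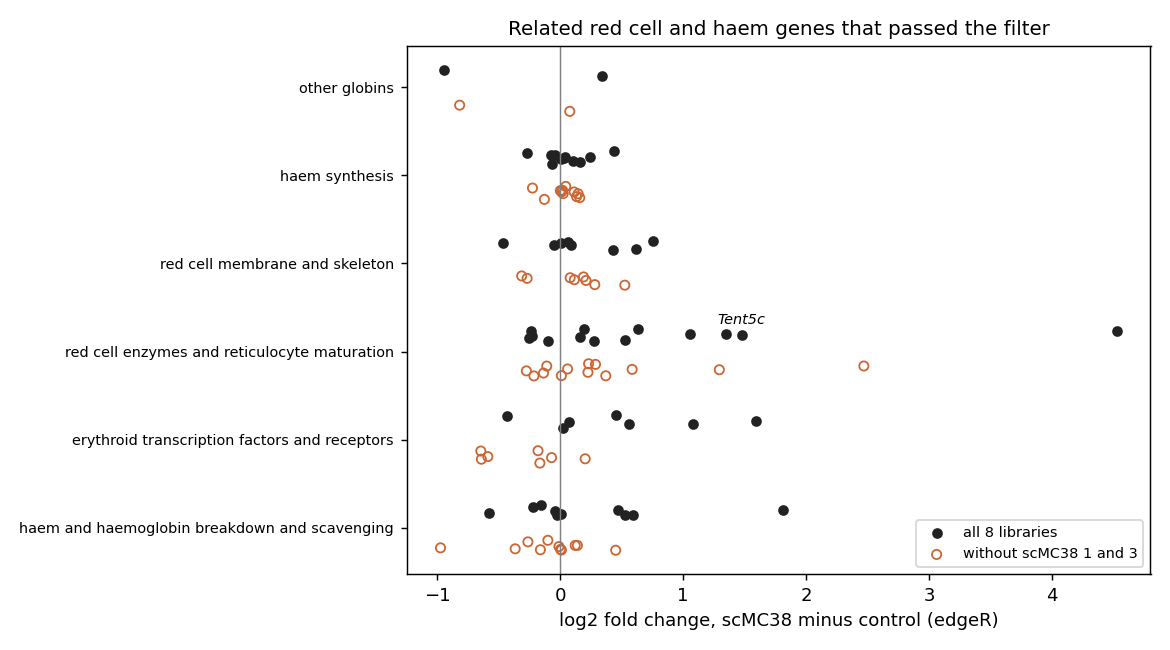
Log2 fold change, scMC38 minus control (x axis), of the tested genes of 6 related lists, 1 point per gene. Filled points use all 8 libraries and open points leave out scMC38 1 and 3. Tent5c, the named gene, is the one called with all libraries, and the filled points run from -0.94 (Mb) to 4.52 (Trim10, not called).

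The genes whose levels across the 8 libraries were most like those of the 6 tested members came from 10785 candidates (proper symbol, average log2 CPM 1 or more). Likeness was Pearson's r with the mean standardised log2 CPM of the members, and it includes the group difference and the shared scaling. Of the 8 genes most like them, 7 are given, Tent5c (0.976), Il4ra (0.973), Ddx41 (0.971), Serpinb9 (0.971), Osmr (0.969), Lrg1 (0.967) and B3gnt3 (0.964). With group means removed the values ranged from 0.772 for Lrg1 to 0.880 for Serpinb9. In all 7 of these genes the 4 scMC38 libraries lay above the 4 controls, as in 6.82% of all genes tested. This follows largely from the ranking, since the members were chosen on the group difference, and nothing is read from it. Tent5c stood at 11.1, 9.93, 13.1 and 8.63 CPM in scMC38 1 to 4, highest in scMC38 3 as was Alas2.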

How the data were processed

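Per the submitters' processing notes, the build was GRCm39 and the tools, named without roles, were Salmon 1.10.3, R 4.4.3, fastp 1.0.1, MultiQC 1.30 and FastQC 0.12.1. The authors deposited estimated counts per gene symbol, unscaled for depth or length, and 49.3% of nonzero values carry a fraction. The sources used here do not give the annotation release or strand handling.

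Of 35667 rows, 144 without a symbol (0.00270% to 0.00403% of counts) were left out and 26 repeated symbols summed. Counts were rounded and analysed in R 4.3.3 by edgeR 4.0.16 (low-count filter filterByExpr, minimum count 10 and total 15, TMM, robust quasi-likelihood F test, no covariate, Benjamini-Hochberg over 14112 genes, call at 0.05). The common coefficient of variation was 27.3%. DESeq2 1.42.0 was an alternative. The fit was tested on simulated data. Groups and replicate numbers come from the titles, and columns were matched by library name. Libraries of a group differed beyond counting noise (chi-square per degree of freedom 63.2 to 480), so each counts as 1 replicate.

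Members and lists were chosen with earlier results of these data known. Some listed genes were left out of the lists and are not reported here. Named genes are the members, up to 4 called genes of each list (or the 2 with the smallest p), and the 8 genes most like the members. The genes Ibsp, Rhd, Rhag, Kel, Klf1, Gata1, Hemgn, Trim10, Alas1 and the embryonic globins were chosen after their values were seen. So were the single erythroid, bone, granulocyte, neutrophil and B cell markers that are named.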

Additional observations from a re-analysis of the deposited data

Results flagged for a closer look

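Single libraries far from the rest of their group were looked for among 58 sets of 4 values (gap to the nearest library over the range above Dixon's 95% critical value, which chance gives in about 1 of 20 sets), and 10 stood out. They are not independent, since globins share reads and scaling. Control 2 was far above the other controls for Hbb-bs (443 CPM against 195 to 233), Hbb-bt (62.7 CPM against 30.1 to 33.7), Alas2 (12.2 CPM against 5.95 to 6.98), the beta sum (506 CPM against 225 to 265) and the 4 adult globins together (1074 CPM against 494 to 589). The ratio of Hba-a2 to Hba-a1 was low in scMC38 3, at 1.59 against 1.83 to 1.88. Library scMC38 3 was also far above the other scMC38 libraries for markers of mature neutrophils (2546 CPM), marrow granulocyte progenitors (2011 CPM), B cells (9.64 CPM) and bone cells (783 CPM).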

How the results depend on the processing

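Under the 17 alternatives, the 6 tested members kept a positive log2 fold change in all 102 values, but 65 of these were no longer past the threshold. The constant sign is not evidence, as the genes were chosen on this contrast and their groups did not overlap. With the globin pairs summed, both copies of a pair were given the value of the sum. Of the 8 genes, 6 were called with all libraries, 3 with no filter, 0 without scMC38 1 and 3, 0 without control 1 and 2, and 0 with the replicate block. Leaving out 1 library gave 0 to 3. The related genes called higher were 1, and 5 with DESeq2, 0 without control 1 and 2, 0 with the replicate block, and 0 to 1 leaving out 1 library. Genes called higher over the whole table were 104, and 216 with total counts, 829 with DESeq2, 69 with no filter, 25 without scMC38 1 and 3, and 1 to 59 leaving out 1 library. Genes called lower were 66, and 597 with DESeq2, 39 without scMC38 1 and 3, and 1 to 52 leaving out 1 library. Total counts shifted the median of all genes by 0.11.

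Without control 1 and 2, edgeR called 0 genes higher and 0 lower, with 1605 at an unadjusted p under 0.05. With the replicate block it called 0 higher and 1 lower, with 2004 at an unadjusted p under 0.05. The deviations of libraries with the same number had r from -0.28 to -0.01. With 4 libraries in each group, and some scMC38 libraries set apart by bone and marrow markers, these values cannot decide whether the numbers pair mice. The cause of the lost calls was not tested. Summing the globin pairs gave 1.70 for alpha globin and 1.61 for beta globin. Depth limits Ahsp and Epb42, with 5 and 13 counts in the 4 controls.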
